A study of Mus musculus with 2 samples.

Results

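The genes described here are those of the 4 mouse Hox clusters, Hoxa on chromosome 6, Hoxb on chromosome 11, Hoxc on chromosome 15 and Hoxd on chromosome 2. They were compared between mouse embryonic fibroblasts (MEFs) that lack Fut8 and MEFs that carry it. A probe set was taken where the platform annotation gave it a single gene symbol made of Hox, a cluster letter and a number. This found 48 probe sets of 33 genes, out of 45101 probe sets and 18193 genes on the array. Hox genes without such a probe set were not analysed here.

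The study asked how expression differs between Fut8-/- and Fut8+/+ MEFs, which are cells grown from embryonic connective tissue. Fut8 encodes the enzyme that adds core fucose to N-glycans. There was 1 array of Fut8-/- cells and 1 array of Fut8+/+ cells. Cells of both genotypes were grown in serum-containing medium with no treatment named in the labels. The design text gives n as 3 for each genotype, while 1 array per genotype was analysed here. The labels do not say whether an array holds 1 culture or a pool of several. The labels give neither the age or sex of the embryos, nor the part of the embryo the cells came from, nor how the allele was made.

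Hox genes encode homeodomain transcription factors that specify position along the body axis and along the limb. Within a cluster they lie in the order of their paralog groups, numbered 1 to 13, and low-numbered genes are used further towards the head than high-numbered ones. Genes of the same number in different clusters are paralogs and often share functions. Fibroblasts keep a Hox pattern in culture that reflects the site they were taken from.

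Signals are given as deposited, in linear units. The log2 ratios of Fut8-/- over Fut8+/+ were shifted so that the median of bright probe sets was at 0, which multiplied the Fut8-/- signals by 1.16. Scaled signals under a floor of 12.3 were raised to it, and where 1 array was at the floor the fold is written with the words at least. A gene counts as measured where the brighter array reached 39.1, and as higher or lower where its ratio passed 2-fold. A gene with several probe sets is represented by the brightest of them. With 1 array per genotype there is no replicate check and no test of genotype, and no value below carries an error between cultures. In such bulk samples, fewer cells of a type and less RNA per cell cannot be told apart.

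The array labels were checked first. Fut8 had a signal of 11.7 in Fut8-/- cells, against 190.9 in Fut8+/+ cells, at its brightest probe set. No source used here says whether that probe set reads the disrupted part of the gene. Transcripts of the sex chromosomes differed too: Xist, the transcript that silences an X chromosome, read 15.2 in Fut8-/- cells and 656 in Fut8+/+ cells, whereas the Y-linked Eif2s3y read 2845 and 7.06. Genotype and sex therefore cannot be told apart in any ratio below. Of 11 fibroblast markers measured among 15, 5 were lower in Fut8-/- by 2-fold or more and 1 was higher by as much, and the summed signal of the list was 31160 in Fut8-/- and 42524 in Fut8+/+. The mesenchymal homeobox gene Prrx1 was at the floor in Fut8-/- cells, with 7.26 against 221 in Fut8+/+ cells, while Vim, the intermediate filament of mesenchyme, read 11110.5 and 11471. Of 4 measured neural and glial markers 3, namely Nes, Sox2 and Tubb3, were at least 2-fold lower. Map2 was within 2-fold on the higher side, with 66.5 in Fut8-/- cells and 48.2 in Fut8+/+ cells. The list summed to 198 in Fut8-/- and 804 in Fut8+/+, of which Nes alone read 93.9 and 522. Sox10, of the same list, was under the floor on both arrays. Over all measured genes 6.08% were higher and 8.46% lower. The shares were 9.09% and 45.5% for the fibroblast list, and 0% and 75% for the neural and glial list. Among markers bright on both arrays, the 9 fibroblast ones gave 1 higher and 3 lower. The 2 neural and glial ones gave 0 higher and 1 lower. Of 10 epithelial markers 3 were measured, and each passed 2-fold. The keratin gene Krt19 was at least 14.6-fold higher, with 155 in Fut8-/- cells and 2.08 in Fut8+/+ cells. Epcam (15.9 in Fut8-/- cells and 44.9 in Fut8+/+ cells) and Grhl2 (16.9 and 40.2) were lower. Among the epithelial markers 0 were bright on both arrays, so the filter set the direction of these 3. Of the 3 probe sets of Grhl2 above the floor on an array, 1, below the measured limit, had a positive log2 ratio (1.00). The defining epithelial markers Cdh1 and Krt18 were under the floor on both arrays, and the list summed to 257 in Fut8-/- and 157 in Fut8+/+. Of 8 skeletal muscle markers 3 were measured. Ckm was 2.27-fold higher (44.6 in Fut8-/- cells and 22.8 in Fut8+/+ cells) and Des at least 4.53-fold lower (10.2 and 55.9). The other probe set of Ckm, below the measured limit, read 17.5 in Fut8-/- cells and 32.8 in Fut8+/+ cells (log2 ratio -0.69). Here too 0 markers were bright on both arrays, so the filter set the direction of Ckm and Des. Myf5 and Myog, which define that lineage, were under the floor on both arrays, and the list summed to 130 in Fut8-/- and 143 in Fut8+/+. Sox9, the one chondrocyte marker measured, was within 2-fold, with 55.0 in Fut8-/- cells and 122 in Fut8+/+ cells, as were the 2 measured leukocyte markers, and 0 of 8 endothelial markers were measured. The part of these differences in the Hox values was not tested.

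Of the 33 Hox genes, 21 were measured. Among them 6 were higher in Fut8-/- by 2-fold or more (28.6%), 3 were lower by as much (14.3%) and the other 12 were within 2-fold. Over all 10164 measured genes the corresponding shares were 6.08% on the higher side and 8.46% on the lower side; without centring these shares were 4.08% and 11.8%. In the range of mean signal that the measured Hox genes span, the shares of measured genes were 7.36% higher and 11.0% lower. The higher Hox genes were Hoxa9, Hoxb3, Hoxb5, Hoxc8, Hoxd8 and Hoxd9, and the lower ones Hoxa7, Hoxb2 and Hoxc4. The median log2 ratio of the measured Hox genes was 0.31, against 0.00033 for all measured genes, and it was 0.09 without centring, where the median of all genes was -0.23. Over all 33 Hox genes, with the dim ones included, it was 0.00063, against 0 for all 18193 genes.

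Dim signals bear on these counts. A gene enters as measured through its brighter array, so a gene bright on 1 array only had to differ. Of the 9 Hox genes past 2-fold, 4 were above the measured limit on both arrays, namely Hoxa9, Hoxb3 and Hoxc8 on the higher side and Hoxc4 on the lower side. Among the 15 Hox genes bright on both arrays these make 3 higher and 1 lower, where 3.67% of all such genes were higher and 4.89% lower.

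**Figure D1:**
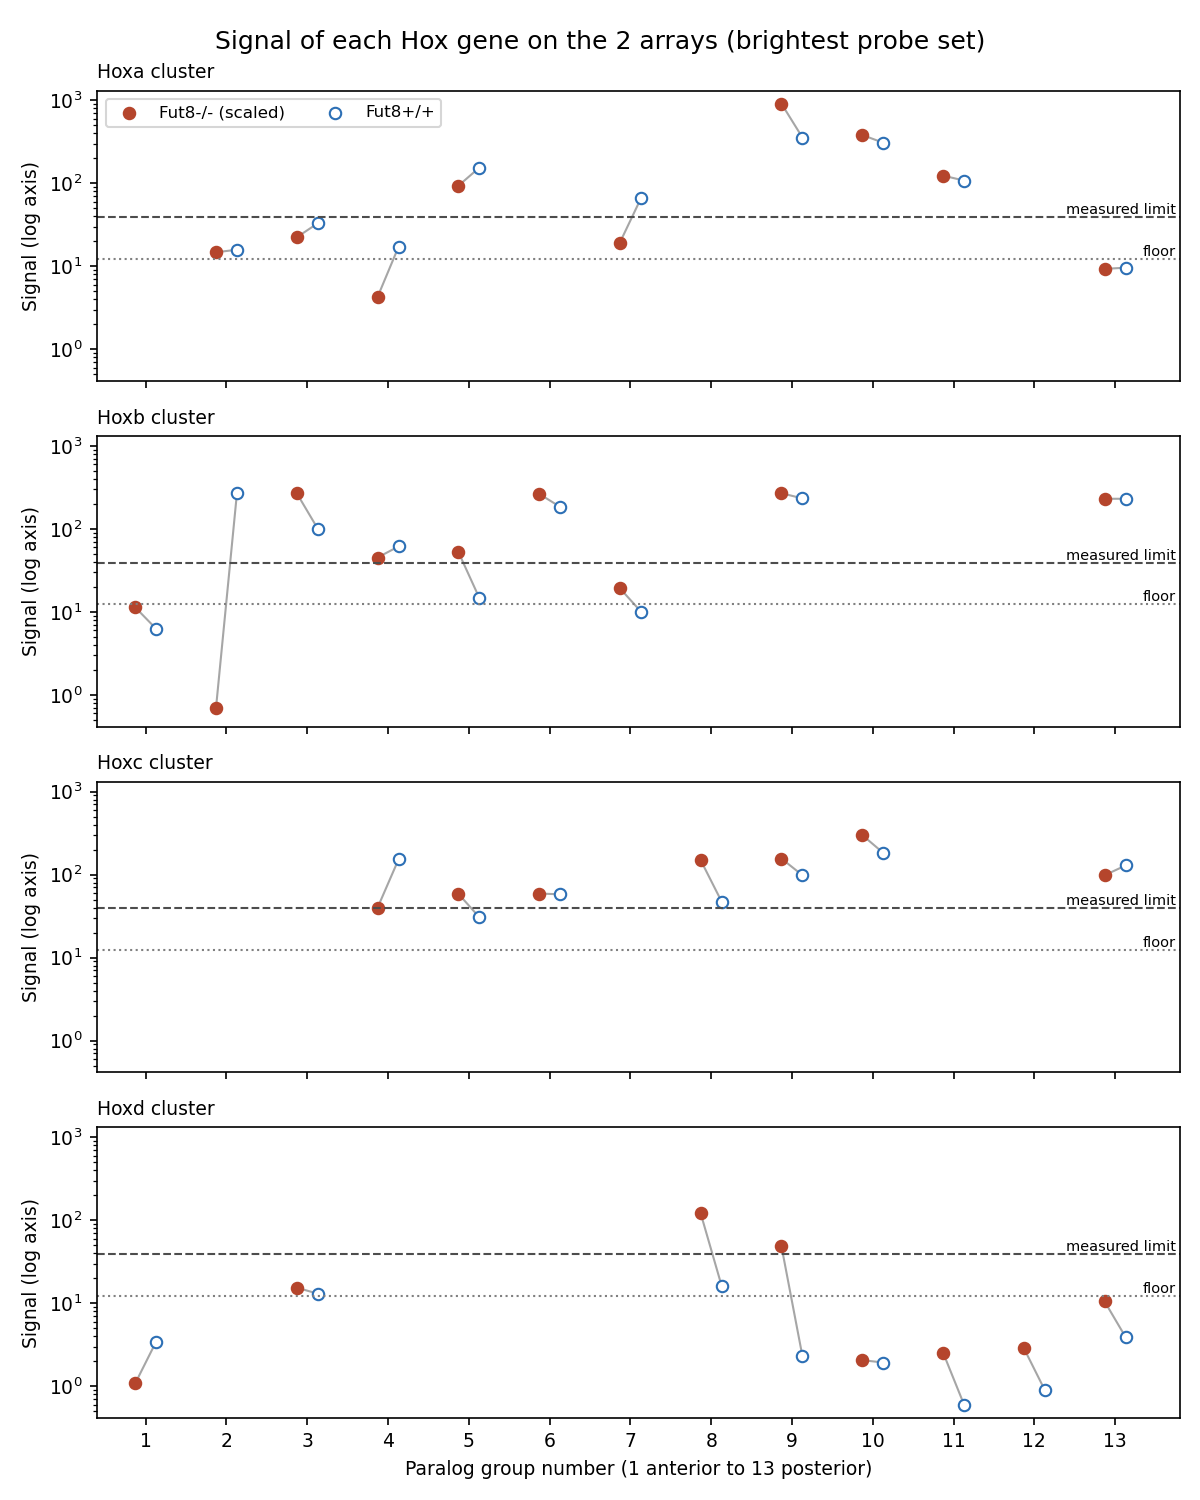
Signal of the brightest probe set of each Hox gene (log axis) against its paralog group number, with a panel per cluster; filled points are Fut8-/- (scaled) and open points Fut8+/+, 1 array each. Hoxb2 spans from below the floor in Fut8-/- to 272 in Fut8+/+, Hoxd8 and Hoxd9 lie above the measured limit in Fut8-/- only, and Hoxd10 to Hoxd13 lie below the floor on both arrays.

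The other 12 Hox genes were not measured. Hoxa13, Hoxb1, Hoxd1, Hoxd10, Hoxd11, Hoxd12 and Hoxd13 were under the floor on both arrays. Hoxa2, Hoxa3, Hoxa4, Hoxb7 and Hoxd3 were above the floor on at least 1 array but dim, with signals between 3.67 and 19.3 in Fut8-/- cells and between 10.1 and 33.1 in Fut8+/+ cells. Signal at this level gives no order between the genotypes.

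The Hoxd cluster was the one in which the measured genes were bright on the Fut8-/- array alone. Hoxd8 had a signal of 104 in Fut8-/- cells and 16.1 in Fut8+/+ cells, a 7.51-fold difference. Its other probe set read 82.9 in Fut8-/- cells and 0.998 in Fut8+/+ cells, at least 7.82-fold higher, so both readings of the gene ran the same way. Hoxd9, the next gene in the cluster, had 41.6 in Fut8-/- cells and 2.29 in Fut8+/+ cells, at least 3.92-fold higher, from a single probe set and with the brighter array close to the measured limit. Hoxd10 to Hoxd13, the digit and distal limb genes at the other end of the cluster, had signals between 1.77 and 9.01 in Fut8-/- cells and between 0.600 and 3.90 in Fut8+/+ cells, so their signals did not rise above the floor on either array. Hoxd1 and Hoxd3, at the opposite end, were not measured either, and the 2 probe sets annotated to both Hoxd4 and Hoxd3 had signals of 1.68 and 0.917 in Fut8-/- cells and 12.7 and 1.39 in Fut8+/+ cells. Hoxd8 and Hoxd9 were thus the measured genes of this cluster.

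The 300 bases around the start of these neighbouring genes are shown because both differed in the same direction. The windows are from RefSeq (build GRCm38.p6), 5′ to 3′ on the gene's own strand, and run from 250 bases before the start to 50 after it. They were searched on both strands for TGATNNAT (a composite site of PBX and HOX proteins), TGACAG (MEIS), TTTATG (CDX), CCAAT and TATAAA, and capitals mark the matches. The Hoxd8 window is chr2:74704365-74704664 on the plus strand and the Hoxd9 window chr2:74697513-74697812 on the plus strand.
Hoxd8: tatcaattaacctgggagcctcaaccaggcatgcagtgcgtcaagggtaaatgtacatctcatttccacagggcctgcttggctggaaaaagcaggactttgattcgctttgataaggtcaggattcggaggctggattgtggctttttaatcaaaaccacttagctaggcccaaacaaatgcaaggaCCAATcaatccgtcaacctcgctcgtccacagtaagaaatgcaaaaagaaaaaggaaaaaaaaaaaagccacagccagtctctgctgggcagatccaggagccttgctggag
Hoxd9: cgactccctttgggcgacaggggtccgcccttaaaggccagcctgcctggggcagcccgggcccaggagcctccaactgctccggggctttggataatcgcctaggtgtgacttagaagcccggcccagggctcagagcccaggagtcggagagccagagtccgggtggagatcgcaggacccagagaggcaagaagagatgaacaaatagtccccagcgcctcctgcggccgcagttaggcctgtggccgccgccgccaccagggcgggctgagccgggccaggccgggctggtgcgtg
Hoxd8 holds 1 CCAAT match and Hoxd9 holds none of the 5 motifs. A CCAAT match is found in 37.4% of the 32544 windows in the table and in 15 of the 24 Hox windows (62.5%). Hoxd9 has 20 CpG dinucleotides and Hoxd8 6, where the median of all windows is 7 and that of the Hox windows 14.5. The letters describe these windows and say nothing of whether a factor binds there.

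In the Hoxa cluster Hoxa7 was lower and Hoxa9 higher in Fut8-/-, and the other 3 measured genes lay within 2-fold. Hoxa7 had a signal of 16.7 in Fut8-/- cells and 66.0 in Fut8+/+ cells, 3.40-fold lower. Hoxa5, which patterns the neck and thorax and the developing lung, read 80.4 in Fut8-/- cells and 155 in Fut8+/+ cells at its brightest probe set (log2 ratio -0.73). That probe set carries the suffix _x_at, which marks possible cross-hybridisation; the other probe set of Hoxa5 read 25.9 in Fut8-/- cells and 117 in Fut8+/+ cells (log2 ratio -1.96), past 2-fold. Both probe sets thus read lower in Fut8-/-, and they differ on whether the difference passes 2-fold.

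Hoxa9, known from blood stem cells and leukaemia and the next gene of the cluster after Hoxa7, was higher. Its signals were 784 in Fut8-/- cells and 356 in Fut8+/+ cells, 2.56-fold higher, and its other probe set had a log2 ratio of 1.11, also past 2-fold. Hoxa9 is the one Hox gene past 2-fold whose probe sets were both bright on both arrays and both past 2-fold. Hoxa10, a gene of the lumbar spine and uterus, lay within 2-fold, with 329 in Fut8-/- cells and 309 in Fut8+/+ cells. Hoxa11, which patterns the forearm and lower leg, read 107 in Fut8-/- cells and 108 in Fut8+/+ cells. The median log2 ratio of the 5 measured Hoxa genes was 0.20, and -0.02 without centring, so the median has no stable direction.

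The windows of Hoxa9 and Hoxa7 are shown as neighbours that differed in opposite directions, with the same motifs in capitals and both read from the minus strand (chr6:52227321-52227620 for Hoxa9 and chr6:52218524-52218823 for Hoxa7, build GRCm38.p6, from RefSeq).
Hoxa9: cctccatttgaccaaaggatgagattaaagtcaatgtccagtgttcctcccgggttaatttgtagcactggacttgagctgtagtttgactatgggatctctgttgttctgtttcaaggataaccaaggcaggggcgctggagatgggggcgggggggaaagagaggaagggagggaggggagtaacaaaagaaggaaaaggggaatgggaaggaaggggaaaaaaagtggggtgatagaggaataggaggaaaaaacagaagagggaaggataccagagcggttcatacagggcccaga
Hoxa7: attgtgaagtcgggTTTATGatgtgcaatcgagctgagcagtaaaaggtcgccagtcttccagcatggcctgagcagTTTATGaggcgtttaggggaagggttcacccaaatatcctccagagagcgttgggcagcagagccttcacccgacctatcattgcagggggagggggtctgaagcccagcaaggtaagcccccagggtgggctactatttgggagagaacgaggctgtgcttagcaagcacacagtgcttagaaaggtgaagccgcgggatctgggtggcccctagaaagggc
The Hoxa7 window holds 2 TTTATG matches and none of the other motifs, and the Hoxa9 window holds none of the 5. TTTATG is found in 11.9% of all windows and in 5 of the 24 Hox windows (20.8%). In the Hox windows TGATNNAT was found in 4 of 24 (16.7%, against 8.79% of all windows), TGACAG in 2 (8.33%, against 19.1%) and TATAAA in 4 (16.7%, against 13.6%). The 24 windows cover 22 Hox genes.

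**Figure D2:**
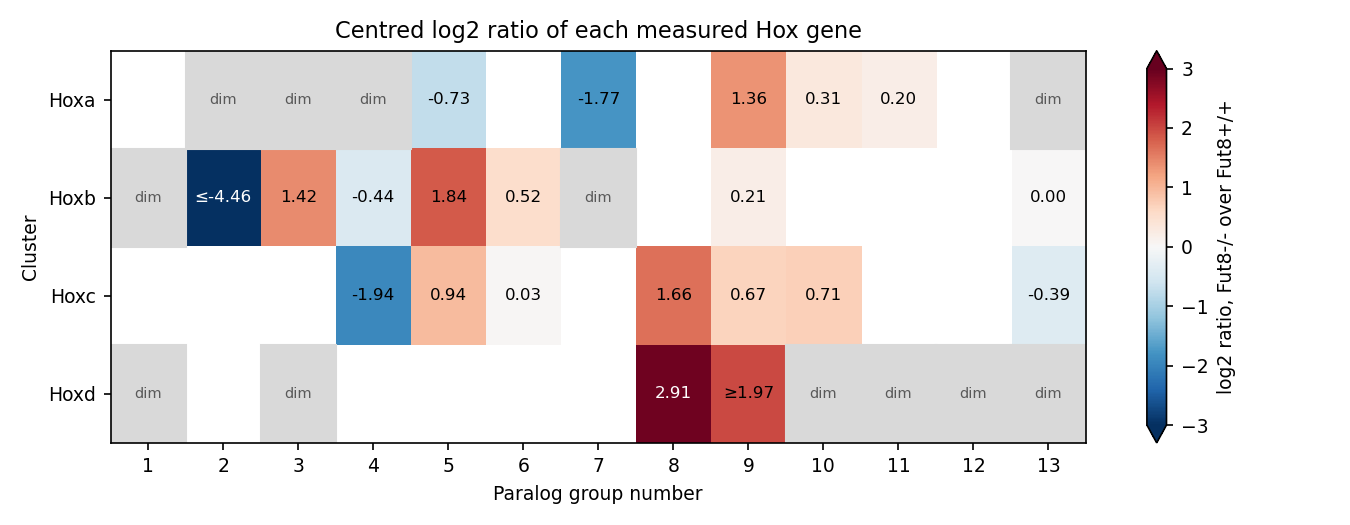
Centred log2 ratio of Fut8-/- over Fut8+/+ for each measured Hox gene, by cluster (rows) and paralog group number (columns); grey cells were too dim, blank cells had no single-symbol probe set or no such gene, and ≥ or ≤ marks a bound with 1 array at the floor. Group 9 is positive in all 4 clusters (0.21 to at least 1.97), though Hoxb9 is -0.01 without centring. Hoxa7 and Hoxa9 have opposite signs. Hoxd9 is measured through the Fut8-/- array only and Hoxa7 through the Fut8+/+ array only, so the filter set their direction.

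In the Hoxb cluster the differences past 2-fold lay in paralog groups 2, 3 and 5, and in both directions. Hoxb2, which acts in the hindbrain and the facial nerve, was at the floor in Fut8-/- cells, with a signal of 0.595 against 272 in Fut8+/+ cells, at least 22.0-fold lower. It has a single probe set. Of the 4 measured neural and glial markers given above, 3 were lower too, and their part in this value was not tested. Hoxb3, the adjacent gene, went the other way, with 232 in Fut8-/- cells and 101 in Fut8+/+ cells (2.67-fold higher), although its dimmer probe set read 41.6 and 40.7, a log2 ratio of 0.25. When the ratio was taken as the median of its probe sets, Hoxb3 had a log2 ratio of 0.84 and was within 2-fold.

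Hoxb5, known from enteric neural crest and blood stem cells, had 45.6 in Fut8-/- cells and 14.8 in Fut8+/+ cells, 3.59-fold higher. Its opposite-strand transcript Hoxb5os was 9.45-fold higher, with 177 in Fut8-/- cells and 21.8 in Fut8+/+ cells, so the probe sets named for either strand of the locus read higher in Fut8-/-. Hoxb4, used to expand blood stem cells, read 38.9 in Fut8-/- cells and 61.6 in Fut8+/+ cells, and Hoxb6 read 228 and 185, both within 2-fold.

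The posterior Hoxb genes lay close together on the arrays. Hoxb9, which patterns the ribs, read 232 in Fut8-/- cells and 234 in Fut8+/+ cells. Hoxb13, known from the prostate and the tail, read 199 in Fut8-/- cells and 231 in Fut8+/+ cells, a log2 ratio of 0.00063 that was -0.22 without centring. The median log2 ratio of the 7 measured Hoxb genes was 0.21, and -0.01 without centring. A further probe set is annotated to both Hoxb8 and Hoxb7 and therefore counts for neither; it read 104 in Fut8-/- cells and 63.8 in Fut8+/+ cells (log2 ratio 0.92).

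The Hoxc cluster was the one cluster whose 7 genes on the array were all measured. Hoxc4, its most anterior gene, had 34.2 in Fut8-/- cells and 152 in Fut8+/+ cells, 3.83-fold lower. Hoxc8, which specifies thoracic vertebrae and forelimb motor neurons, had 128 in Fut8-/- cells and 47.2 in Fut8+/+ cells, 3.16-fold higher. Between them the signals lay within 2-fold. Hoxc5 read 50.6 in Fut8-/- cells and 30.6 in Fut8+/+ cells, close to the limit with a log2 ratio of 0.94 that passed it at 1.01 after quantile normalization and at 1.01 with each chromosome centred. Its second probe set, at 18.5 in Fut8-/- cells and 3.46 in Fut8+/+ cells, was below the measured limit and gives no order between the genotypes.

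Hoxc6 had probe sets of differing sign. The brightest, an _x_at probe set, read 50.9 in Fut8-/- cells and 57.8 in Fut8+/+ cells (log2 ratio 0.03, and -0.19 without centring), and the other 2 had log2 ratios of -0.67 and -0.94. Towards the posterior end, Hoxc9, which sets the thoracic programme of motor neurons, read 134 in Fut8-/- cells and 98.1 in Fut8+/+ cells. Hoxc10, used in the lumbar cord and hindlimb, read 257 in Fut8-/- cells and 182 in Fut8+/+ cells, so both lay on the higher side within 2-fold. Hoxc13, a gene of hair and nails, read 84.4 in Fut8-/- cells and 129 in Fut8+/+ cells. The median log2 ratio of the cluster was 0.67, and 0.45 without centring.

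Read across clusters, paralog group 9 was measured in all 4 clusters, and no other group was. Its log2 ratios were 1.36 for Hoxa9, 0.21 for Hoxb9, 0.67 for Hoxc9 and at least 1.97 for Hoxd9, all positive, whereas without centring Hoxb9 was at -0.01 and 3 of 4 were positive. In group 8, Hoxc8 and Hoxd8 were both past 2-fold on the higher side. In group 4, Hoxc4 was past 2-fold on the lower side, Hoxb4 lay within 2-fold (log2 ratio -0.44), and the dim Hoxa4 read 3.67 in Fut8-/- cells and 17.2 in Fut8+/+ cells. In group 5, Hoxb5 was at 1.84, past 2-fold, and Hoxc5 at 0.94 and Hoxa5 at -0.73 lay within it. By position, of 2 anterior genes (groups 1 to 3) 1 was past 2-fold on the higher side and 1 on the lower. The 10 central genes (groups 4 to 8) gave 3 higher (30%) and 2 lower (20%). The 9 posterior genes (groups 9 to 13) gave 2 higher (22.2%) and 0 lower. All measured genes gave 6.08% higher and 8.46% lower. Hoxb5, Hoxc5, Hoxd8 and Hoxd9 counted as measured through the Fut8-/- array only, and Hoxa7 and Hoxb2 through the Fut8+/+ array only. The filter thus set the direction of these genes. Among genes bright on both arrays, the 1 anterior gene was higher. The 6 central ones gave 1 higher and 1 lower, and the 8 posterior ones 1 higher and 0 lower. Log2 ratios were above 0 for 8 of the 9 measured posterior genes, and for 5 of 9 without centring. With centring, 5087 of all 10164 measured genes were above 0. Among the 8 posterior genes Hoxb13 (0.00063), Hoxa11 (0.20) and Hoxb9 (0.21) lay close to 0.

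**Figure D3:**
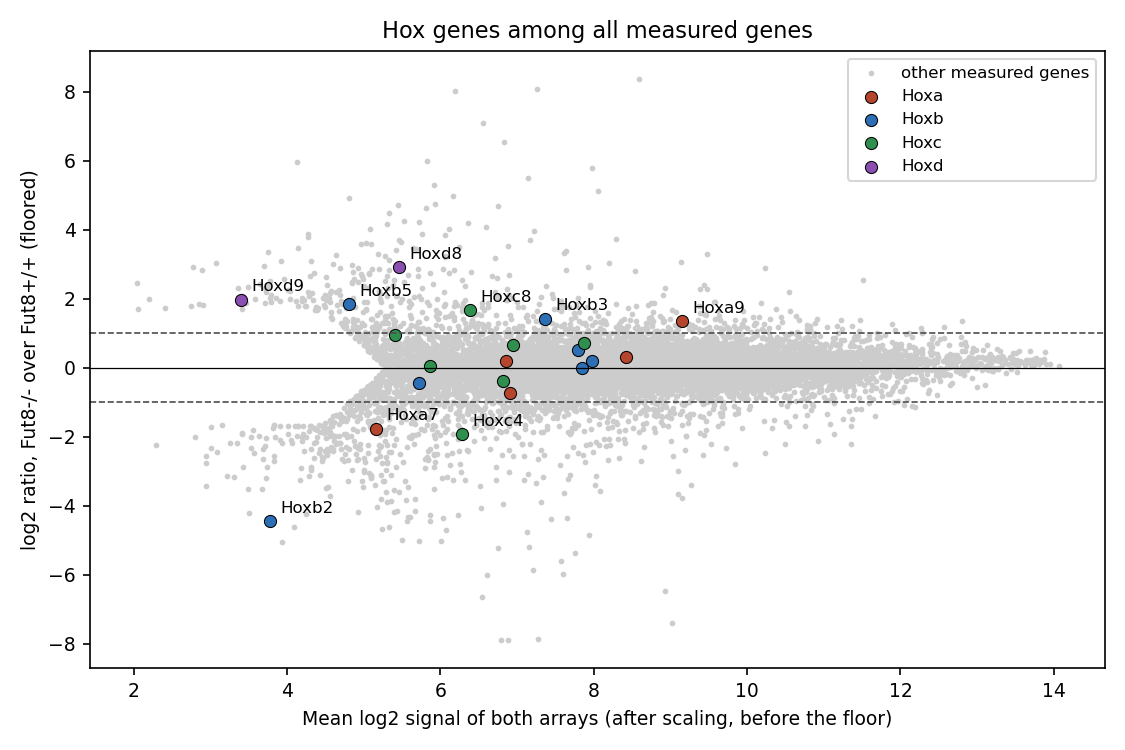
Floored log2 ratio of Fut8-/- over Fut8+/+ against the mean log2 signal for all 10164 measured genes (grey) and the 21 measured Hox genes (coloured by cluster), with dashed lines at 2-fold; each point is 1 gene on 1 array per genotype. The 9 named Hox genes lie past 2-fold, 6 above the upper line and 3 below the lower one.

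Probe sets of the same gene give the one internal measure of spread. Over 5389 genes with several probe sets, each exceeding the floor on both arrays, the log2 ratios differed with an SD of 0.40, or 1.32-fold. This spread lies within this pair of arrays and holds no error between cultures. Its sources were not told apart. Of 9 Hox genes with several probe sets above the floor on at least 1 array, 8 had the same sign in all of them and Hoxc6 did not. The 8 include Hoxa3 and Hoxa4, whose probe sets were all below the measured limit and give no order between the genotypes. Of the 8, Hoxa5, Hoxa9, Hoxb3 and Hoxd8 were the ones with several measured probe sets. The span between probe sets, from the lowest to the highest ratio, was 0.25 for Hoxa9, 0.97 for Hoxc6, 1.17 for Hoxb3 and 1.23 for Hoxa5. A span is a different measure from that SD. The second probe sets of Hoxd8, Hoxc5 and Hoxa10 were at the floor in Fut8+/+ cells, so their ratios are lower bounds. That of Hoxd8 gives the direction only. Those of Hoxc5 and Hoxa10 were below the measured limit and give no order between the genotypes. Hoxa7, Hoxb2, Hoxb5, Hoxc4, Hoxc8 and Hoxd9 rest on a single probe set each and have no such check.

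**Figure D4:**
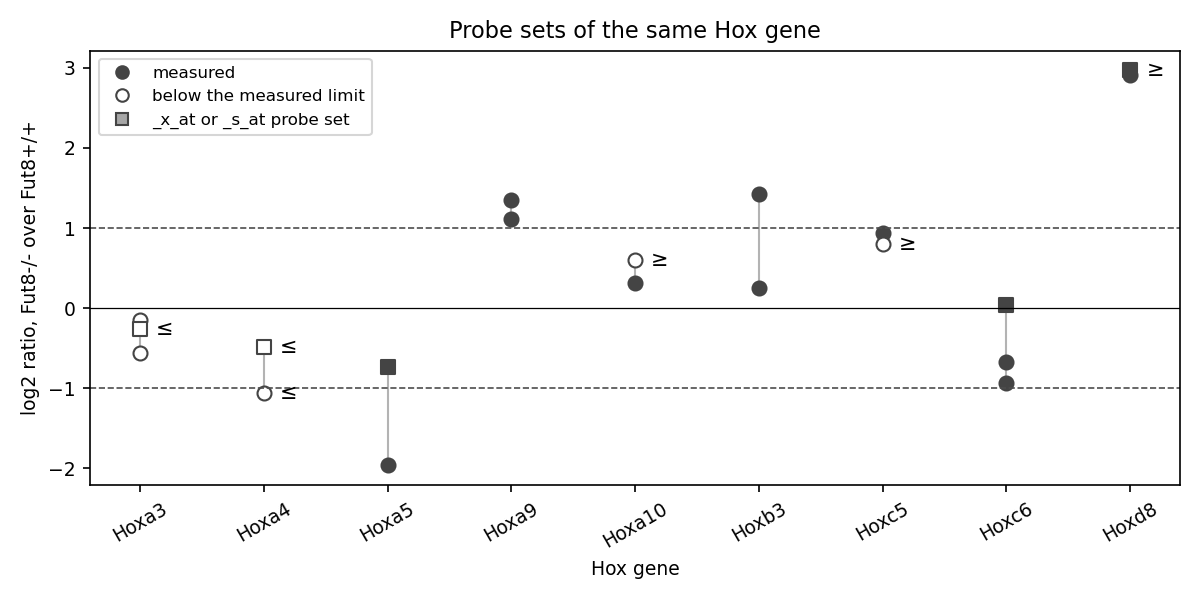
Log2 ratio of Fut8-/- over Fut8+/+ for each probe set of the 9 Hox genes with several probe sets above the floor; filled symbols are measured, open ones below the measured limit, squares are _x_at or _s_at probe sets, and ≥ or ≤ marks a bound with 1 array at the floor. The probe sets of Hoxa9 (1.36 and 1.11) lie together and those of Hoxd8 (2.91 and at least 2.97) are both high, while those of Hoxb3, Hoxa5 and Hoxc6 spread by about 1 log2 unit.

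For each cluster the 5 nearest measured genes on either side were taken by their order along the chromosome in GRCm38.p6, which gave 40 genes. Of these, 3 passed 2-fold on the higher side (7.5%, against 6.08% of all measured genes) and 0 on the lower (against 8.46%), with a median log2 ratio of 0.10. Without centring, or with each chromosome centred, 1 was higher, and the median was -0.16 without centring. The 3 were Skap1 beside Hoxb (2.04-fold, with 44.2 in Fut8-/- cells and 25.2 in Fut8+/+ cells), and Nfe2l2 (2.08-fold) and Ttc30b (2.84-fold) beside Hoxd. Skap1 counted as measured through the Fut8-/- array only and so had to differ upward. The medians of the flanking genes were -0.16 for Hoxa, 0.06 for Hoxb, -0.10 for Hoxc and 0.42 for Hoxd. The remaining measured genes of the same chromosomes had medians of -0.13 (chromosome 6), 0.13 (11), -0.07 (15) and 0.09 (2).

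A list of 32 transcripts inside or beside the clusters had 16 measured members, of which Hoxb5os and Skap1 (2) passed 2-fold on the higher side (12.5%, against 6.08% of all measured genes) and 0 on the lower. Without centring, or with each chromosome centred, 1 was higher. Hoxb5os and Skap1 counted as measured through the Fut8-/- array only and so had to differ upward. Among the 14 members bright on both arrays 0 were higher and 0 lower, where 3.67% of all such genes were higher and 4.89% lower. The median of the list was 0.13, and -0.09 without centring. Skap2, an adaptor protein gene beside Hoxa, read 414 in Fut8-/- cells and 811 in Fut8+/+ cells. Snx11, a sorting nexin gene beside Hoxb, read 58.1 in Fut8-/- cells and 105 in Fut8+/+ cells. Both were within 2-fold.

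Hox proteins bind DNA with partners of the TALE homeodomain class. Of 9 listed, 6 were measured, with 1 past 2-fold on either side (16.7% each, median -0.04). All measured genes gave 6.08% higher and 8.46% lower. Pknox2 counted as measured through the Fut8-/- array only and Meis1 through the Fut8+/+ array only, so the filter set their direction. Among the 4 listed genes bright on both arrays 0 were higher and 0 lower. Pknox2, a PREP-type partner, had 91.0 in Fut8-/- cells and 3.72 in Fut8+/+ cells, at least 8.57-fold higher, while its dim second probe set read 14.7 and 16.7. Meis1, a cofactor of HOX and PBX proteins, had 25.9 in Fut8-/- cells and 123 in Fut8+/+ cells, 4.11-fold lower. The other 2 probe sets of Meis1 were below the measured limit, with log2 ratios of -0.68 and 0.16. Meis2 (208 in Fut8-/- cells and 318 in Fut8+/+ cells) and Pbx2 (267 and 244) were within 2-fold, as were Pbx3 and Pknox1. The other probe sets of Pbx2 had log2 ratios of 1.15, past 2-fold, and 0.28.

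Polycomb proteins keep Hox clusters silent and Trithorax proteins keep them active. Among 21 measured Polycomb genes, 0 passed 2-fold on the higher side and 1 on the lower (4.76%, against 6.08% higher and 8.46% lower over all measured genes; median -0.14, and -0.36 without centring). That gene, Phc1, was just past the limit, with 171 in Fut8-/- cells and 404 in Fut8+/+ cells (2.03-fold), and within it after quantile normalization or with each chromosome centred, where the list had 0 lower. Cbx6 read 749 in Fut8-/- cells and 1638 in Fut8+/+ cells, Phf1 76.2 and 50.9, and Jarid2 141 and 96.1. At these brightest probe sets all were within 2-fold after centring. The other probe set of Cbx6 passed 2-fold on the lower side (log2 ratio -1.17). Both other probe sets of Jarid2 passed it on the higher side (1.06, and 1.01 at a dim one). The list had 2 lower genes without centring.

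Among 14 measured genes of the Trithorax group and related activators, 0 passed 2-fold on the higher side and 1 on the lower (7.14%). The shares of all measured genes were 6.08% higher and 8.46% lower. The median of the list was -0.15. Mllt3, a subunit of elongation complexes, read 72.5 in Fut8-/- cells and 248 in Fut8+/+ cells, 2.94-fold lower, and its other 2 probe sets were lower by less than 2-fold (log2 ratios -0.82 and -0.94). Dpy30 (2133 in Fut8-/- cells and 1689 in Fut8+/+ cells), Ash2l (761 and 1270) and Psip1 (1067 and 1739) were within 2-fold.

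Retinoic acid induces Hox genes from the anterior end of the clusters. Of 7 measured genes of its pathway, 1 passed 2-fold on the higher side (14.3%) and 2 on the lower (28.6%), with a median of -0.55. All measured genes gave 6.08% higher and 8.46% lower. Dhrs3 counted as measured through the Fut8-/- array only and Crabp1 through the Fut8+/+ array only, so the filter set their direction. Among the 5 pathway genes bright on both arrays 0 were higher and Crabp2 (1) was lower. The cellular retinoic acid binding protein gene Crabp1 read 1.35 in Fut8-/- cells and 113 in Fut8+/+ cells, at least 9.12-fold lower. Crabp2, of the same family, read 835 in Fut8-/- cells and 2558 in Fut8+/+ cells, 2.63-fold lower. Dhrs3, which reduces retinaldehyde to retinol, read 69.5 in Fut8-/- cells and 19.2 in Fut8+/+ cells, 4.22-fold higher. The receptor gene Rarg was within 2-fold, with 129 in Fut8-/- cells and 248 in Fut8+/+ cells. Of the axial inducers, Gmnn (2010 in Fut8-/- cells and 1282 in Fut8+/+ cells) and Gdf11 (21.2 and 39.8) were the measured ones and lay within 2-fold; the Cdx genes were not measured.

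Factors outside the clusters also mark position in limb and trunk mesenchyme. Of 20 listed, 8 were measured, with a median of 1.30 (1.08 without centring). Of these 8, 4 passed 2-fold on the higher side (50%, against 6.08% of all measured genes) and 0 on the lower (against 8.46%). Pitx1, Tbx18 and Irx3 counted as measured through the Fut8-/- array only and so had to differ upward. Among the 5 genes of the list bright on both arrays, Tbx15 (1) was higher and 0 were lower, where 3.67% of all such genes were higher and 4.89% lower. Pitx1, the hindlimb factor, read 340 in Fut8-/- cells and 23.4 in Fut8+/+ cells at its brightest probe set, and its other probe set read 159 and 12.8. Tbx18 (343 in Fut8-/- cells and 35.0 in Fut8+/+ cells) and Tbx15 (852 and 231), T-box factors of mesenchyme, were higher in each of their probe sets. Irx3, an Iroquois factor of the limb bud, read 50.2 in Fut8-/- cells and 18.3 in Fut8+/+ cells, 3.19-fold higher. The limb field genes Tbx4 and Tbx5, which mark hindlimb and forelimb, were not measured.

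**Figure D5:**
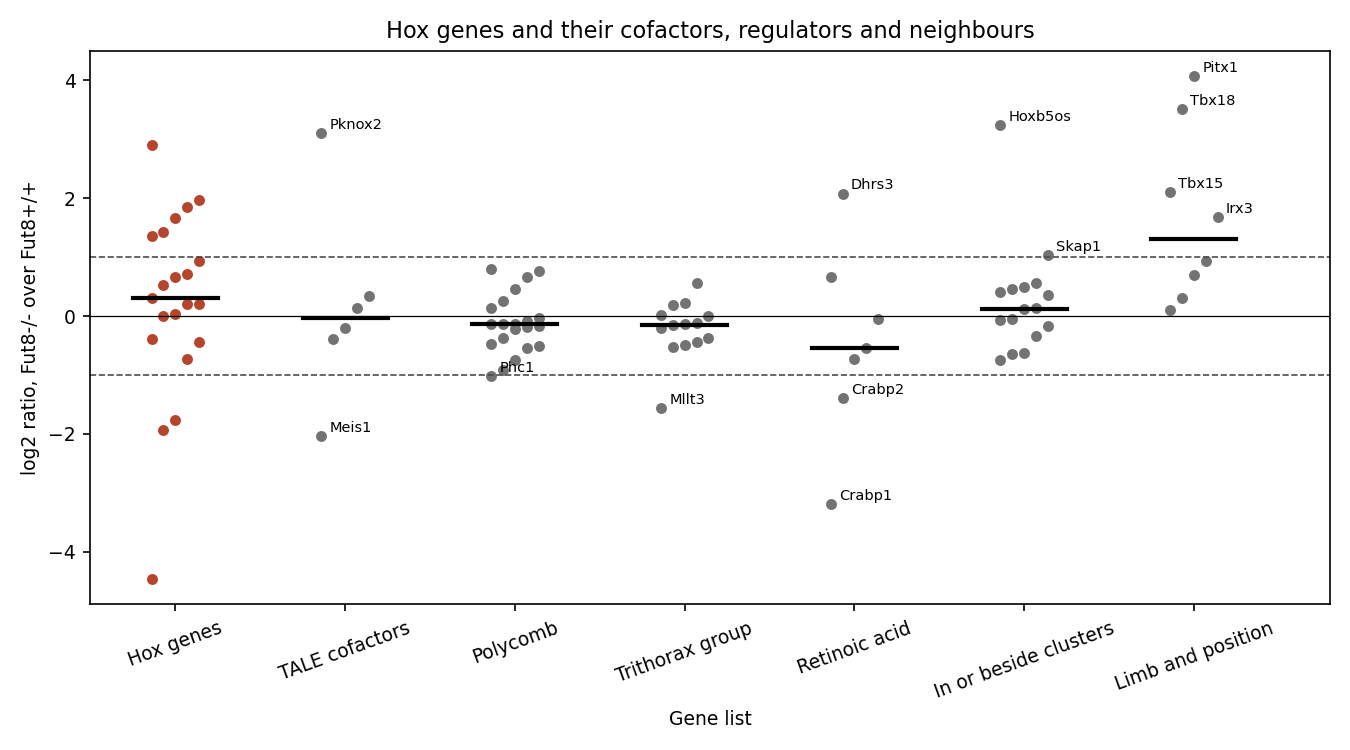
Centred and floored log2 ratio of Fut8-/- over Fut8+/+ for the measured Hox genes (red) and 6 lists of partners, regulators and neighbours (grey); bars are medians, dashed lines mark 2-fold, and listed genes past 2-fold are named. The Polycomb and Trithorax genes, all bright on both arrays, lie mostly within 2-fold. The Hox genes range from at most -4.46 (Hoxb2) to 2.91 (Hoxd8), which are each bright on 1 array only and so had to differ. Hox genes bright on both arrays range from -1.94 (Hoxc4) to 1.66 (Hoxc8). Hoxc4 reached the measured limit only narrowly in Fut8-/-.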

How the data were processed

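The values are the authors' deposited intensity values, 1 linear signal per probe set and array, made with the Affymetrix software GCOS, per the submitters' processing notes. For its version, its algorithm, its scaling target and any detection calls, the sources used here give no value. The column medians were 16.9 for Fut8-/- and 20.5 for Fut8+/+, so scale and centring beyond a linear scale stay unknown. The files name no genome build.

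Genotypes came from the genotype label. Of 45101 probe sets, 34945 had 1 gene symbol in the platform annotation, 932 had several, 9160 had none and 64 were controls. All 33 Hox symbols matched the GRCm38.p6 gene table. After log2 transformation, ratios were centred on their median (-0.22) over probe sets that exceeded the 40th percentile of each array. Signals were then floored at the pooled 40th percentile (12.3), and a gene was measured from the pooled 60th percentile (39.1) on its brighter array. Steps ran in Python 3.11.15 with numpy 2.4.6, pandas 2.3.3 and statsmodels 0.14.6 (loess, span 0.4), and were tested on simulated data.

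With 1 array per genotype no p-value is given, and the number of arrays limits the precision. All Hox genes were accounted for, and of each other list up to 4 measured members with the largest absolute ratio were named; Pbx3, Pknox1, Vim, the flanking genes, Tbx4 and Tbx5 were picked with their values in view. The members and lists were chosen with earlier results of these data known. Besides the reported setting, 12 others were tried, 2 of them added after seeing the data.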

Additional observations from a re-analysis of the deposited data

Results flagged for a closer look

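A probe set outside the gene counts, annotated to both Hoxb8 and Hoxb7, gave a measurable signal that was higher in Fut8-/- cells. It read 104 in Fut8-/- cells and 63.8 in Fut8+/+ cells, a log2 ratio of 0.92 and thus within 2-fold. The probe set of Hoxb7 alone was below the measured limit, with 16.6 in Fut8-/- cells and 10.1 in Fut8+/+ cells. The difference was not tested.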

How the results depend on the processing

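The counts of Hox genes past 2-fold stayed within 1.5 times the reported 6 higher and 3 lower under 10 of 12 other settings. When the brighter array had to reach the 75th percentile, 9 Hox genes were measured, 2 of them higher and 1 lower. With both arrays at or above the 60th percentile, a setting added after seeing the data, 3 were higher and 1 lower; both settings keep fewer genes. The median of the 2 Hoxd genes, 2.44, was 3.37 with a floor at the 20th percentile, 0.97 with a floor at the 60th, 1.95 with a pseudocount of 16 and no floor, and 0 without a filter on the brighter array, which adds genes at the floor. It had no value under the 2 stricter filters. The Hoxa median was 0.83 at the 75th percentile. Of the called genes, Hoxa7 (-0.75), Hoxb5 (0.44) and Hoxd9 (0.31) were within 2-fold with a floor at the 60th percentile, and Hoxb3 (0.84) with the median over its probe sets. Hoxa5 passed 2-fold with that median (-1.34) and without _x_at and _s_at probe sets (-1.96), the other setting added after seeing the data. Called Hox genes kept their sign under each setting that measured them. For Hoxa7, Hoxb2, Hoxb5, Hoxd8 and Hoxd9, bright on 1 array only, the filter had set that sign. All settings reuse the same 2 arrays, so a kept sign is no replicate check. No paired analysis was possible because the genotypes share only 1 replicate number. The median of all Hox genes, 0.31, was 0.00063 without that filter, against 0 for all genes. Dim signals limit the Hoxd genes and the 12 Hox genes that were not measured.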
